A study of Mus musculus with 8 samples.

Results

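The 10 genes described here are immediate-early genes and subunits of the AP-1 transcription factor, measured in mouse embryonic stem cells (ESCs) kept in 4 combinations of self-renewal factors. They are the FOS family members Fos, Fosb and Fosl1, the JUN family members Jun, Junb and Jund, the zinc-finger factors Egr1 and Egr2, and the immediate early response genes Ier2 and Ier3. They were chosen by name and are 10 of the 38991 genes in the expression tables. RNA sequencing values, as FPKM (fragment counts divided by transcript length and by the mapped fragments of the library), were given for 8 cultures, with 2 cultures in each condition. All were Rex1GFPd2 (RGd2) ESCs of strain 129, which carry a destabilised GFP reporter at the Rex1 locus, grown on gelatin in N2B27 medium. Each was held for 6 passages in 2i and then for 5 in its condition, was split every 3 days at 15000 cells per cm2, and was collected at passage 11. The 2i+LIF cultures received the GSK3 inhibitor CHIR99021 (CH, 3 µM), the MEK inhibitor PD0325901 (PD, 1 µM) and leukaemia inhibitory factor (LIF). The 2i cultures received CH and PD without LIF, the CH+LIF cultures no PD, and the LIF+PD cultures no CH. The withdrawal of each factor from 2i+LIF was the question that the comparisons addressed. Nothing in the labels says that the 2 cultures of a condition were independent derivations, so p-values measure the spread between these cultures, which came from 1 cell line.

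Immediate-early genes are transcribed within minutes of a stimulus from promoters that need no new protein synthesis, and their short-lived transcripts are removed soon after. Growth factor signalling through MEK and ERK phosphorylates ternary complex factors at serum response elements, and cytokines such as LIF act through STAT3, for which Junb and Socs3 are known targets. FOS proteins form AP-1 only as heterodimers with JUN proteins, whereas JUN proteins also pair with each other. The cultures here received fresh medium daily, and the time from the last change to collection is not given in the sources used here, so the values are levels at 1 unknown time after feeding.

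The cultures had the marker profile of ESCs. Pou5f1, the core pluripotency factor, lay between 1625 and 2269 FPKM, and all 6 naive ESC markers were above 1 FPKM in every culture. Socs3, the feedback inhibitor induced by STAT3, was at 63.9 and 79.0 FPKM in 2i+LIF and at 2.59 and 1.29 FPKM in 2i. Axin2, a target of beta-catenin, was at 61.3 and 59.4 FPKM in 2i+LIF and at 1.85 and 2.47 FPKM in LIF+PD, and Dusp6, the ERK phosphatase, was at 5.64 and 4.58 FPKM in 2i+LIF and at 26.5 and 32.3 FPKM in CH+LIF. Each factor's readout thus differed in the condition without that factor. The numbers of reads are not part of the FPKM values. Depth relative to replicate 1 of 2i+LIF, estimated from a minority of low values, ran from 0.499 in replicate 1 of 2i to 1.18 in replicate 2 of CH+LIF. Markers of other cell types differed between conditions. The 5 primed epiblast and mesendoderm markers summed to 7.41 and 9.32 FPKM in 2i+LIF, 28.3 and 35.1 FPKM in 2i, 30.0 and 49.0 FPKM in CH+LIF, and 51.9 and 52.4 FPKM in LIF+PD. Different genes made up these sums. Otx2 was at 50.3 and 49.2 FPKM in LIF+PD and at 2.15 and 2.11 FPKM in CH+LIF. T was at 0.161 and 0.211 FPKM in LIF+PD and at 36.35 and 18.47 FPKM in CH+LIF. The 4 trophoblast markers summed to 1.16 to 1.92 FPKM in CH+LIF and to 8.55 to 19.1 FPKM elsewhere, and the 3 neural markers to 7.81 to 12.1 FPKM in 2i and LIF+PD and 1.09 to 2.49 FPKM elsewhere. The trophoblast sum in LIF+PD was mostly Gata3 (14.41 and 18.45 FPKM). Cdx2 was at 0.0433 and 0.0960 FPKM there and at 10.23 and 7.91 FPKM in 2i+LIF. The fibroblast genes Dcn and Lum were at 0 in every culture, but Postn was at 14.1 FPKM in replicate 2 of CH+LIF alone, and the 6 primitive endoderm markers summed to at most 3.34 FPKM. The part of these differences in the results below was not tested, and in bulk RNA fewer cells of a type and less RNA per cell cannot be told apart.

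The upstream sequences of 3 AP-1 genes are shown because these genes differed between LIF+PD and 2i+LIF, and because they hold different promoter letters. Each is the 250 bases before the transcription start, from RefSeq on GRCm38.p6, 5′ to 3′ on the gene's own strand. Capitals mark TGACG, the core of the cAMP response element, and TATAAA, the TATA box.
Junb, chr8:84978749-84978998, minus strand: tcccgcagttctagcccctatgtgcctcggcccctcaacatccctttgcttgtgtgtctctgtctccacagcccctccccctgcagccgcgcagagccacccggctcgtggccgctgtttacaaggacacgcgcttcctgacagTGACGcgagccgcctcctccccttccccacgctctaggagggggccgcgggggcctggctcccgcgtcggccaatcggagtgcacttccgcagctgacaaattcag
Fos, chr12:85473640-85473889, plus strand: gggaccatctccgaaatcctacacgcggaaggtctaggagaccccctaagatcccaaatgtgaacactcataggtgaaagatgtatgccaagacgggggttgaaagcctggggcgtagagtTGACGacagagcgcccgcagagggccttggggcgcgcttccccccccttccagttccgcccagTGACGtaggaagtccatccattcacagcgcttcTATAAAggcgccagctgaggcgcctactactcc
Jund, chr8:70697489-70697738, plus strand: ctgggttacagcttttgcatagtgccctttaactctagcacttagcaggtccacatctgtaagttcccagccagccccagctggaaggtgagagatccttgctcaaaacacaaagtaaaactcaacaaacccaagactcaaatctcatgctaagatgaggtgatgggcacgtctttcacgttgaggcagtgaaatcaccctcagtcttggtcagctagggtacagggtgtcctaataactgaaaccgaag
The Fos sequence held TGACG at bases 129 to 125 and 66 to 62 before the start and TATAAA at bases 33 to 28. Junb held TGACG at bases 106 to 102, and Jund held none of the 7 motifs searched on both strands. Those were the CArG box bound by the serum response factor, the core of the cAMP response element, the AP-1 site TGANTCA, the STAT site TTCNNNGAA, the EGR site GCGNGGGCG, the TCF/LEF site CTTTGAT and the TATA box. Of 32851 promoter windows of the same length, 17.8% held the cAMP response element core, 12.4% the TATA box, 1.47% a CArG box, 6.75% the AP-1 site, 7.02% the STAT site, 4.7% the EGR site and 3.21% the TCF/LEF site. The AP-1 site and the cAMP response element core share letters and can overlap. RefSeq windows were found for 7 of the 10 genes. Besides the 3 shown, Fosb held TGACG at bases 60 to 56 and an EGR match at 50 to 42, and Egr2 held CArG and TGACG matches in some of its 5 windows. Jun and Ier3, like Jund, held none of the 7 motifs. These matches describe the letters and show no binding. Sequence beyond the 250 bases was not searched, so a motif not found here can still lie farther upstream in the same promoter.

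Among the FOS and JUN family members described here, the JUN family made up most of the summed FPKM. On the FPKM scale, which is per length, summed Jun, Junb and Jund exceeded summed Fos, Fosb and Fosl1 by 7.79 to 19.9 times over the 8 cultures. The JUN sum was 26.7 and 29.0 FPKM in 2i+LIF, 15.1 and 14.7 FPKM in 2i, 25.7 and 37.4 FPKM in CH+LIF and 42.9 and 44.1 FPKM in LIF+PD. The FOS sum was 2.49 and 1.92 FPKM in 2i+LIF, 1.41 and 1.88 FPKM in 2i, 1.29 and 2.53 FPKM in CH+LIF and 4.77 and 5.28 FPKM in LIF+PD. Both sums were highest in the 2 LIF+PD cultures, without overlap with any other culture.

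**Figure D1:**
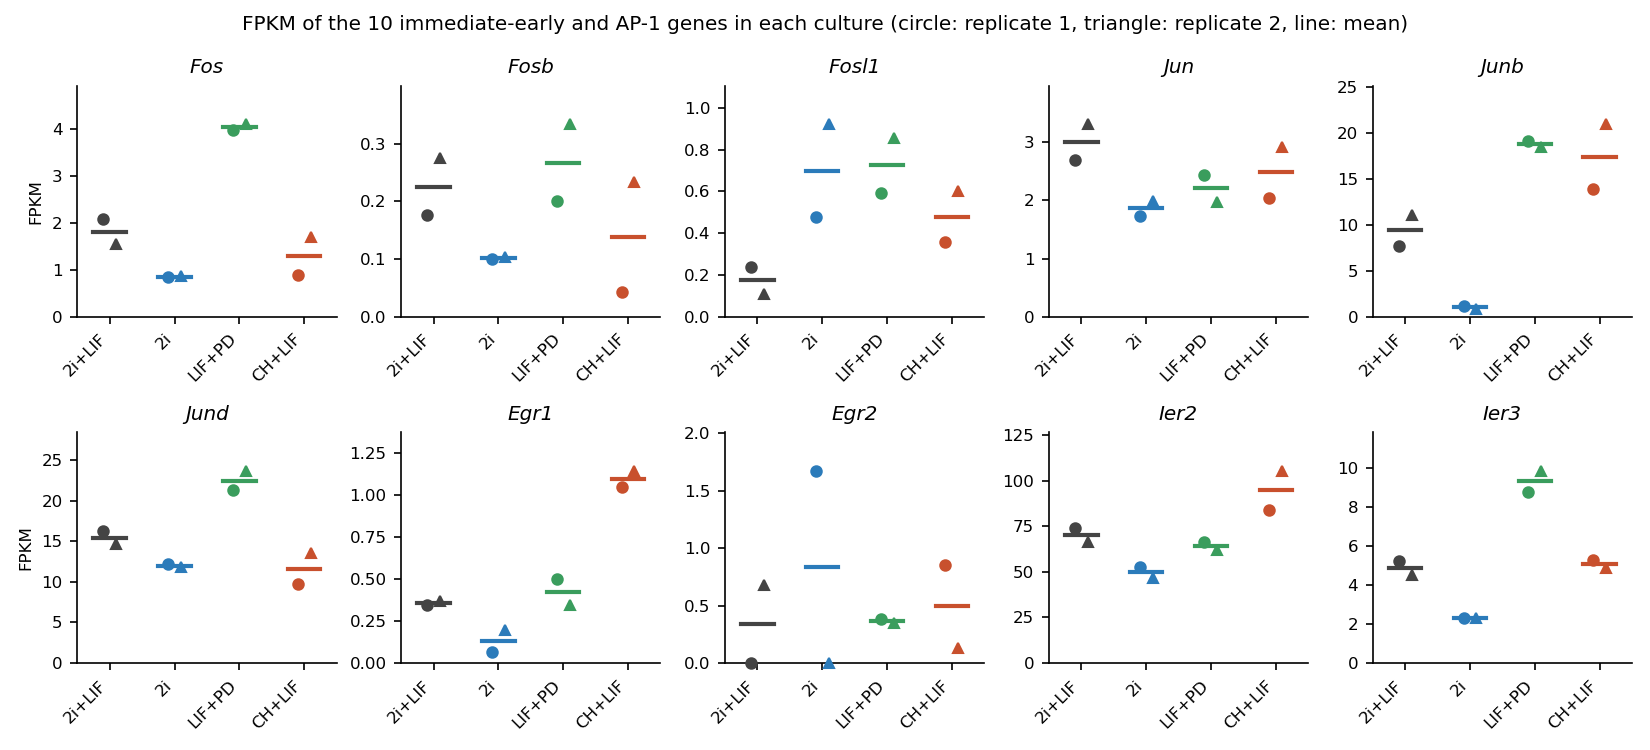
FPKM (y axis, from 0, a separate scale per gene) of the 10 genes in the 4 conditions (x axis), with a circle for replicate 1, a triangle for replicate 2 and a line for the mean of the 2 cultures. Junb and Ier3 were lowest in both 2i cultures, Fos, Jund and Ier3 highest in both LIF+PD cultures, and Egr1 and Ier2 highest in both CH+LIF cultures.

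Junb had the widest range of the family and was lowest without LIF. Junb (ENSMUSG00000052837, mm10 chr8:84976909-84978748) encodes a JUN protein that counteracts Jun at many promoters. It was at 7.70 and 11.1 FPKM in 2i+LIF and at 1.20 and 0.789 FPKM in 2i. In CH+LIF it was at 13.9 and 20.9 FPKM, and in LIF+PD at 19.1 and 18.5 FPKM. Both 2i cultures lay far below the other 6, and both cultures without CH and both without PD lay above the 2i+LIF cultures. In mean FPKM, 2i had 0.106 times the level of 2i+LIF, a difference of -2.37 on the log2(FPKM + 1) scale (SE 0.23, 95% interval -2.91 to -1.82, adjusted p = 0.0009345 by limma, n = 2 and 2). This call held under every alternative. Without replicate 1 of 2i, the culture of lowest depth, the difference was -2.52. Junb rose in LIF+PD by 0.95 (SE 0.23, adjusted p = 0.024) and in CH+LIF by 0.82 (SE 0.23, adjusted p = 0.0393) against 2i+LIF. CH+LIF and LIF+PD themselves differed by -0.13 (95% interval -0.68 to 0.41, adjusted p = 0.704), an interval that spans differences of either sign.

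Jund (ENSMUSG00000071076, chr8:70697739-70700616) encodes the JUN protein that is present in most resting cells, and it was the most abundant JUN transcript in 2i, 2i+LIF and LIF+PD. It was at 16.3 and 14.6 FPKM in 2i+LIF, 12.1 and 11.9 FPKM in 2i, 9.77 and 13.5 FPKM in CH+LIF and 21.3 and 23.7 FPKM in LIF+PD. The LIF+PD cultures were the highest, and the 2i and CH+LIF cultures overlapped. Jund rose in LIF+PD against 2i+LIF by 0.51 on the log2 scale (SE 0.15, adjusted p = 0.0479 by limma), and it was 0.85 higher in LIF+PD than in 2i (adjusted p = 0.00718) and 0.91 lower in CH+LIF than in LIF+PD (a difference of -0.91, adjusted p = 0.00485). Against 2i+LIF, it differed by -0.34 in 2i (95% interval -0.70 to 0.02, adjusted p = 0.17) and by -0.40 in CH+LIF (95% interval -0.75 to -0.04, adjusted p = 0.101), neither of which passed the threshold. Without replicate 2 of CH+LIF the latter became -0.61 with an adjusted p of 0.032. The gene Gm11175, on the opposite strand, covers 877 of the 1668 exon bases of Jund (52.6%) in the GENCODE M21 annotation. Jund has 1 exon there, but the deposited Jund spans 2878 bases. The 2 gene models thus differ, and the share covered in the deposited one is not known. Gm11175 was at 85.0 and 90.1 FPKM in 2i+LIF, 61.7 and 71.1 FPKM in 2i, 58.1 and 86.9 FPKM in CH+LIF and 127 and 130 FPKM in LIF+PD, the same order of conditions as Jund except for 2i and CH+LIF. The methods give a strand setting for gene counts, which were not used here, and none for the FPKM values. If strand was not used for FPKM, reads of the 2 genes cannot be told apart.

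Jun (ENSMUSG00000052684, chr4:95049034-95052222) encodes the founding AP-1 subunit, a target of the JNK kinases. It was at 2.71 and 3.31 FPKM in 2i+LIF, 1.73 and 1.99 FPKM in 2i, 2.04 and 2.93 FPKM in CH+LIF and 2.45 and 1.98 FPKM in LIF+PD. The 2i cultures lay below those of 2i+LIF and CH+LIF and overlapped those of LIF+PD, by narrow margins. Jun passed the threshold in none of the 6 pairwise comparisons, with differences from 2i+LIF of -0.48 in 2i (95% interval -0.92 to -0.05, adjusted p = 0.115), -0.32 in LIF+PD (-0.75 to 0.11, adjusted p = 0.246) and -0.21 in CH+LIF (-0.64 to 0.22, adjusted p = 0.441). In GENCODE M21, Junb shares 7.52% of its exon bases with Prdx2 and Jun 7.28% with Junos, both on the opposite strand. Junb has 2301 exon bases in that annotation, but the deposited Junb spans 1840 bases, so its models differ too. Prdx2, an abundant peroxiredoxin gene, lay between 204 and 255 FPKM, with 243 and 205 FPKM in the 2i cultures where Junb was lowest.

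The makeup of the JUN transcripts moved with these levels. Junb gave 28.8% and 38.1% of the JUN sum in 2i+LIF, 7.98% and 5.39% in 2i, 54.1% and 56.0% in CH+LIF and 44.6% and 41.9% in LIF+PD. Jund gave 80.6% and 81.0% in 2i and 38.0% and 36.2% in CH+LIF. Junb was thus the leading JUN transcript in CH+LIF alone, and Jund in the other 3 conditions.

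**Figure D2:**
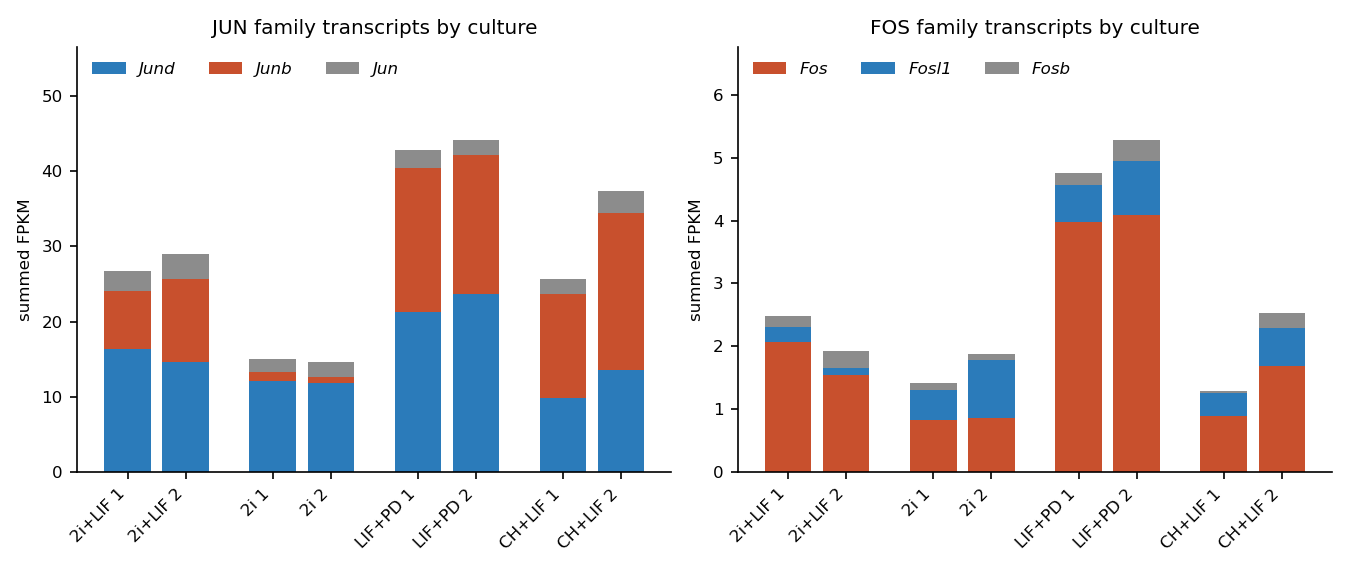
Summed FPKM (y axis) of the JUN family (left) and FOS family (right) in each of the 8 cultures (x axis, condition and replicate), with each bar split by gene. Junb nearly disappears from the bars of the 2i cultures, and both families' bars are tallest in the 2 LIF+PD cultures.

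Fos was the main FOS transcript in all cultures except replicate 2 of 2i and was highest without CH. Fos (ENSMUSG00000021250, chr12:85473890-85477273) encodes the classical immediate-early AP-1 subunit. It was at 2.07 and 1.54 FPKM in 2i+LIF, 0.832 and 0.857 FPKM in 2i, 0.894 and 1.69 FPKM in CH+LIF and 3.97 and 4.09 FPKM in LIF+PD. Both LIF+PD cultures were above the other 6, and the CH+LIF cultures overlapped those of 2i+LIF. In mean FPKM, LIF+PD had 2.23 times the level of 2i+LIF, a difference of 0.85 on the log2(FPKM + 1) scale (SE 0.20, 95% interval 0.37 to 1.33, adjusted p = 0.0235 by limma). LIF+PD also exceeded 2i by 1.45 (adjusted p = 0.00284), and CH+LIF was below LIF+PD (difference -1.16, adjusted p = 0.0059). The differences from 2i+LIF were -0.60 in 2i (95% interval -1.08 to -0.12, adjusted p = 0.0859) and -0.31 in CH+LIF (95% interval -0.79 to 0.17, adjusted p = 0.311). Fos was thus not called higher where the MEK inhibitor was absent.

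Fosb and Fosl1 were near the lower end of the measurements. Fosb (ENSMUSG00000003545, chr7:19302721-19310045), a FOS protein with a known truncated form, ranged from 0.043 to 0.333 FPKM. Fosl1 (ENSMUSG00000024912, chr19:5447703-5455945), which encodes FRA1, was at 0.238 and 0.108 FPKM in 2i+LIF, 0.476 and 0.921 FPKM in 2i, 0.357 and 0.602 FPKM in CH+LIF and 0.593 and 0.856 FPKM in LIF+PD. Both 2i+LIF cultures had the lowest Fosl1 values. Neither gene reached 1 FPKM in 2 cultures, so neither was tested, and without that filter neither was called in any comparison. Ccdc85b, on the opposite strand and at 10.2 to 19.5 FPKM, covers 57.2% of the exon bases of Fosl1, so the same limit holds for Fosl1.

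Egr1 had its highest values in the cultures without PD. Egr1 (ENSMUSG00000038418) encodes a zinc-finger factor that is a standard readout of ERK signalling. It was at 0.346 and 0.373 FPKM in 2i+LIF, 0.063 and 0.195 FPKM in 2i, 1.05 and 1.15 FPKM in CH+LIF and 0.502 and 0.348 FPKM in LIF+PD. The CH+LIF cultures were above the other 6, yet the level stayed close to 1 FPKM. Egr1 passed the filter on low values only through the 2 CH+LIF cultures, so a difference for it in that condition was built into its entry and its calls are given as a description. Against 2i+LIF, CH+LIF was 3.06 times higher in mean FPKM and 0.63 higher on the log2(FPKM + 1) scale (SE 0.17, adjusted p = 0.0372 by limma), and the differences of 2i and LIF+PD were -0.27 (adjusted p = 0.321) and 0.07 (adjusted p = 0.811). Egr2 (ENSMUSG00000037868, chr10:67535475-67542188), a related factor known from hindbrain and myelin, was listed at 0 in replicate 1 of 2i+LIF and replicate 2 of 2i and was at 1.67 FPKM in replicate 1 of 2i. Its replicates differed as widely as its conditions, and it was not tested.

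Ier2 was the most abundant of the 10 transcripts. Ier2 (ENSMUSG00000053560, chr8:84661331-84662852) is a gene of a single exon, 314 kb from Junb on the same chromosome, and encodes a small nuclear protein. It was at 74.0 and 66.5 FPKM in 2i+LIF, 52.7 and 46.8 FPKM in 2i, 84.2 and 105 FPKM in CH+LIF and 66.4 and 61.7 FPKM in LIF+PD. The 2i cultures were the lowest and the CH+LIF cultures the highest, with no overlap. CH+LIF exceeded 2i by 0.91 on the log2 scale (SE 0.13, adjusted p = 0.00331 by limma) and LIF+PD by 0.55 (adjusted p = 0.017). Against 2i+LIF, Ier2 fell in 2i (difference -0.49, SE 0.13, adjusted p = 0.0371) and rose in CH+LIF (0.42, SE 0.13, adjusted p = 0.0492), both close to the threshold, and differed by -0.13 in LIF+PD (95% interval -0.43 to 0.17, adjusted p = 0.495). In all 8 cultures the Ier2 value lay above the upper bound deposited beside it, whereas all values of the other 9 genes lay within theirs. Values outside their own bounds were not rare. Among all genes at 1 FPKM or more they made up 6.56% to 12.1% in each culture.

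Ier3 was called in 5 of the 6 pairwise comparisons, and all 5 calls held under every alternative tried. Ier3 (ENSMUSG00000003541, chr17:35821684-35822923), a 2-exon gene, encodes a stress-inducible regulator of apoptosis and ERK signalling. It was at 5.23 and 4.50 FPKM in 2i+LIF, 2.33 and 2.30 FPKM in 2i, 5.31 and 4.87 FPKM in CH+LIF and 8.79 and 9.86 FPKM in LIF+PD. Its conditions fell into 3 separate levels, with 2i lowest, 2i+LIF and CH+LIF overlapping in the middle and LIF+PD highest. Against 2i+LIF, Ier3 fell in 2i (difference -0.82, SE 0.13, 95% interval -1.13 to -0.52, adjusted p = 0.00589 by limma) and rose in LIF+PD (0.82, SE 0.13, 95% interval 0.51 to 1.12, adjusted p = 0.00471). CH+LIF differed from 2i+LIF by 0.06 (95% interval -0.25 to 0.36, adjusted p = 0.779). LIF+PD had 4.03 times the mean FPKM of 2i (log2 difference 1.64, adjusted p = 0.000267).

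**Figure D3:**
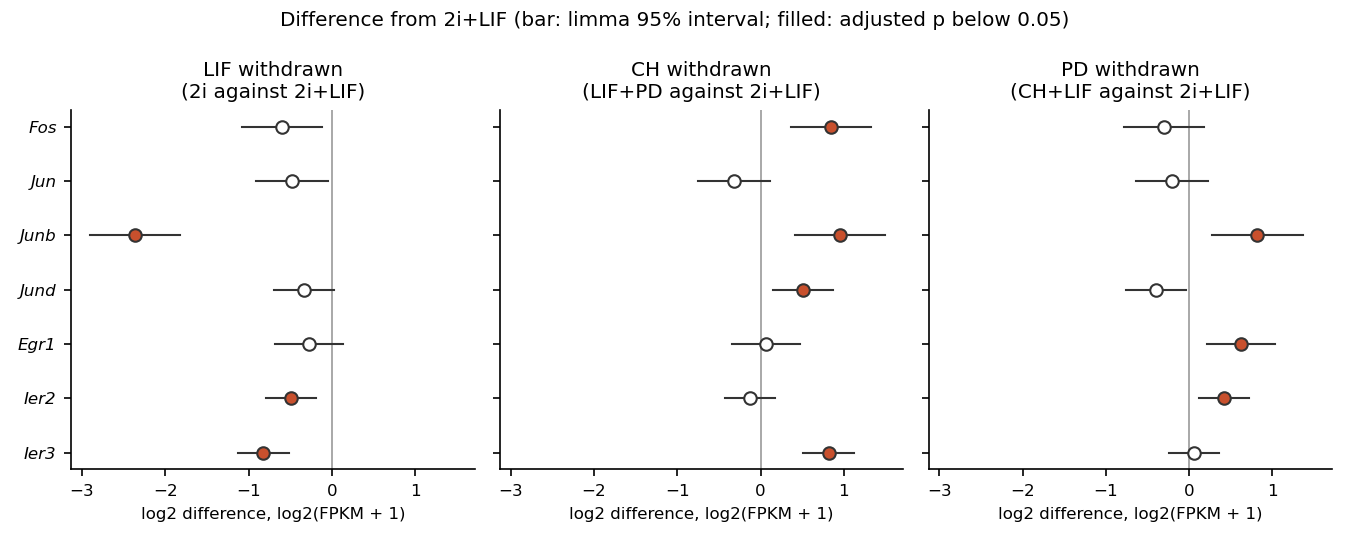
Difference from 2i+LIF on the log2(FPKM + 1) scale (x axis) for the 7 genes tested (y axis) on withdrawal of LIF, CH and PD, with limma 95% intervals as bars and filled points where the adjusted p was below 0.05. The called points lie to the left on LIF withdrawal (Junb at -2.37) and to the right on withdrawal of CH or PD.

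The 3 withdrawals can be set side by side for the 7 members tested. On LIF withdrawal, 18.6% of all genes tested were called, and Junb, Ier2 and Ier3 fell among the 7 members tested, while none rose. The median difference of the 7 was -0.49, against 0.04 over all genes. On CH withdrawal, 25.2% of all genes were called, and Fos, Junb, Jund and Ier3 rose among the 7 (median 0.51, against 0.03 over all genes). On PD withdrawal, 25.4% of all genes were called, and Egr1, Junb and Ier2 rose among the 7 (median 0.06, against 0.01 over all genes). Without Egr1, whose entry rested on that condition, the last count is 2 of 6. These 3 comparisons share the 2i+LIF cultures, so their values are not independent. Several calls were near the threshold. Fos in LIF+PD lost its call when any of the 4 cultures compared was left out (adjusted p 0.0562 without replicate 1 of 2i+LIF to 0.12 without replicate 2), Jund without any culture of 2i+LIF, 2i or LIF+PD (up to 0.194) and also, with all 8 cultures, with a pseudocount of 0.1, no filter, median-of-ratios size factors, quantile normalization, no trend or the replicate block, and Junb in LIF+PD did without either LIF+PD culture or without replicate 1 of 2i+LIF (0.0881 to 0.127). In 2i, Ier2 lost its call without any culture of 2i+LIF, 2i or LIF+PD (0.0589 to 0.171). In CH+LIF, Egr1 lost its call without any culture of 2i+LIF, CH+LIF or LIF+PD (0.0519 to 0.138), Junb without replicate 1 of 2i+LIF, replicate 2 of CH+LIF or either LIF+PD culture (0.0645 to 0.191), and Ier2 without any culture but replicate 1 of CH+LIF (0.0574 to 0.207). The share of all genes called was lower too in fits without 1 of the 4 cultures compared, at 9.03% to 12.75% in 2i, 13.05% to 14.26% in LIF+PD and 11.76% to 15.72% in CH+LIF. With all 8 cultures, Ier2 also lost its call in 2i with no filter, TPM, no trend or the replicate block and in CH+LIF with a pseudocount of 0.1, no filter, size factors, quantile normalization, no trend or the replicate block. Junb lost its call with no filter in both LIF+PD and CH+LIF and with a pseudocount of 0.1 in CH+LIF, as did Egr1 with that pseudocount.

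The 3 conditions that lack 1 factor were also compared with each other. Between CH+LIF and 2i, where 23.9% of all genes were called, Junb, Egr1, Ier2 and Ier3 were higher in CH+LIF. Junb differed by 3.19 (SE 0.23, adjusted p = 0.00025 by limma) and Ier3 by 0.88 (SE 0.13, adjusted p = 0.00414). Between LIF+PD and 2i, where 25.1% were called, Junb (3.32, adjusted p = 0.000166), Ier3, Fos and Jund were higher in LIF+PD. Between CH+LIF and LIF+PD, where 30.4% were called, Egr1 and Ier2 were higher in CH+LIF, and Fos, Jund and Ier3 were lower. The last 3 calls held under every alternative tried. That of Egr1 (0.56, adjusted p = 0.0472) was lost without any culture of 2i+LIF, CH+LIF or LIF+PD (up to 0.176), that of Ier2 without replicate 2 of CH+LIF or either LIF+PD culture (up to 0.0872), and that of Egr1 against 2i without either CH+LIF culture (up to 0.0608).

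Other AP-1 genes followed their own patterns. Of 11 listed, 7 were tested. In 2i, Jdp2 and Maff fell, in LIF+PD Atf3 and Mafk rose, and in CH+LIF Jdp2 and Atf7 fell. The shares of all genes called were 18.6%, 25.2% and 25.4%. Jdp2, a repressor that dimerises with JUN proteins, was at 7.32 and 6.82 FPKM in 2i+LIF, 1.19 and 1.35 FPKM in 2i, 2.26 and 2.95 FPKM in CH+LIF and 9.42 and 13.3 FPKM in LIF+PD. Its level in CH+LIF was thus low where that of Junb was high (difference from 2i+LIF -1.17, SE 0.18, adjusted p = 0.00538 by limma), and in 2i both were low (-1.83, adjusted p = 0.00107). Atf7 (33.5 FPKM on average in 2i+LIF, 16.2 FPKM in CH+LIF) fell by 1.02 (adjusted p = 0.0113). Maff (-0.97, adjusted p = 0.00865), Atf3 (0.96, adjusted p = 0.0254) and Mafk (0.58, adjusted p = 0.0317) were named after their values were seen. Atf3 passed the filter on low values only with the LIF+PD cultures included. A higher value in that condition was thus built into its entry, and its call is given as a description. Of the 4 other EGR and NAB genes, 2 were tested, and Nab2, a corepressor of EGR proteins named after its values were seen, fell in 2i (difference -1.74, adjusted p = 0.00248).

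The wider list of 31 immediate-early genes, of which 29 were tested, split in both directions. In 2i, 4 rose and 8 fell, in LIF+PD 9 rose and 6 fell, and in CH+LIF 7 rose and 8 fell. Of all genes, 18.6%, 25.2% and 25.4% were called in these comparisons. Myc, the growth regulator, was at 8.61 and 5.31 FPKM in 2i+LIF and at 45.9 and 45.6 FPKM in CH+LIF (2.59 higher on the log2 scale, SE 0.32, adjusted p = 0.00235 by limma). Plaur, the urokinase receptor, rose by 1.74 (adjusted p = 0.00221) and Sgk1, a serum-induced kinase, by 0.92 (adjusted p = 0.000964) in CH+LIF. Gadd45b, a stress-response gene, was at 26.2 and 22.5 FPKM in 2i+LIF, 4.27 and 5.03 FPKM in CH+LIF and 36.4 and 41.3 FPKM in LIF+PD. It fell in CH+LIF (-2.17, adjusted p = 0.000269) and rose in LIF+PD (0.65, adjusted p = 0.0116). Rhob, a small GTPase, fell in CH+LIF (-1.84, adjusted p = 0.000361) and in LIF+PD (-0.73, adjusted p = 0.00633), and Plk2, a polo-like kinase, fell in CH+LIF (-0.98, adjusted p = 0.0113) and rose in LIF+PD (1.36, adjusted p = 0.00303). Without replicate 2 of 2i+LIF, 8 in place of 15 genes of this list were called in CH+LIF, and 12.73% in place of 25.4% of all genes.

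More of the ERK feedback and ETV genes were called on PD withdrawal than on withdrawal of LIF or CH. Of 11, 9 rose and none fell in CH+LIF, where 25.4% of all genes were called, with a median difference of 0.98 against 0.01 over all genes. Spry4, a feedback inhibitor of receptor tyrosine kinase signalling, was at 2.17 and 1.07 FPKM in 2i+LIF and at 37.5 and 40.7 FPKM in CH+LIF (3.97 higher on the log2 scale, SE 0.22, adjusted p = 0.000234 by limma). Dusp6 rose by 2.32 (adjusted p = 0.00192), and Etv4, an ETS factor downstream of ERK, by 1.94 (adjusted p = 0.0234). Some genes of the list differed more on another withdrawal. Etv4 itself fell in 2i (-3.15, adjusted p = 0.00463) and in LIF+PD (-2.02, adjusted p = 0.0201), both of which kept PD. The exceptions were Etv5 (0.17, adjusted p = 0.384) and Ccnd1 (0.33, adjusted p = 0.0598). Without replicate 1 of CH+LIF, 5 of the 11 were called, and 11.76% of all genes. In 2i 2 of the list rose and 3 fell, and in LIF+PD 1 rose and 4 fell, where 18.6% and 25.2% of all genes were called.

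**Figure D4:**
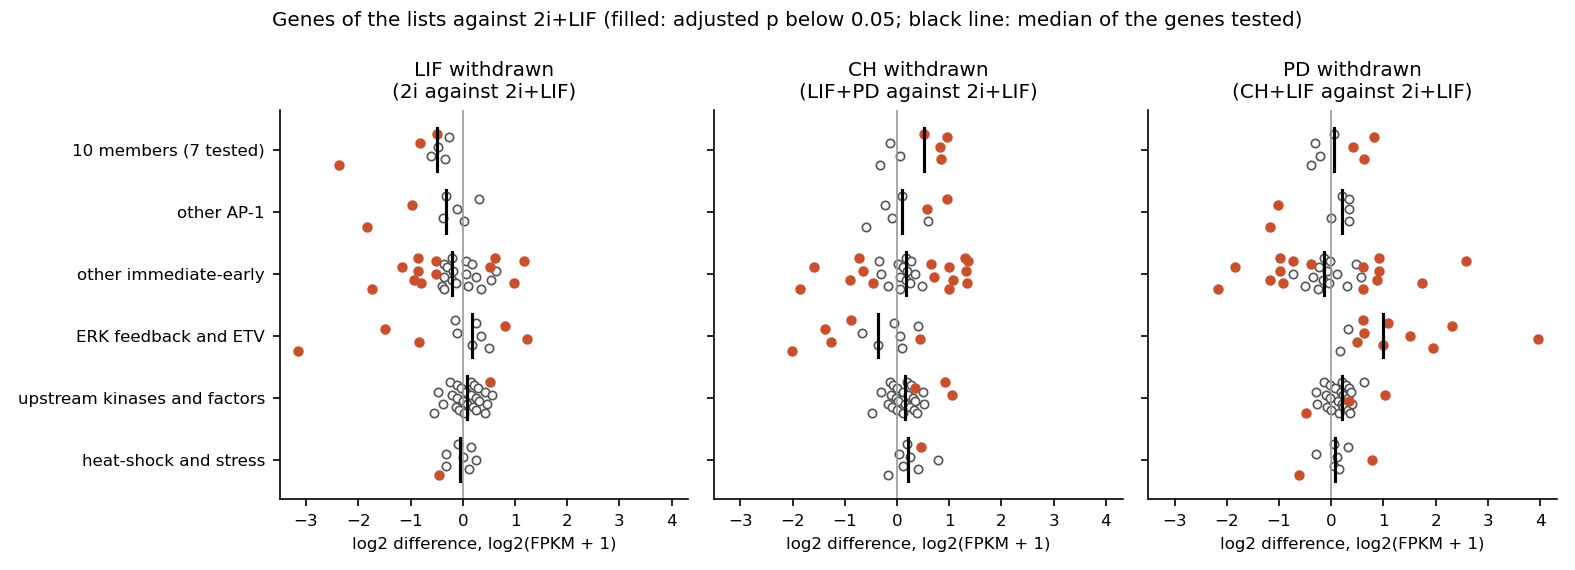
Difference from 2i+LIF on the log2(FPKM + 1) scale (x axis) for each gene tested in 6 lists (y axis), with filled points where the adjusted p was below 0.05 and a black line at the median. In the right panel the ERK feedback and ETV genes all lie to the right of 0 (median 0.98), whereas the 7 members tested and the other immediate-early genes lie on both sides.

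Few of the kinases and factors upstream of these genes were called against 2i+LIF. Of 27 tested, 1 was called in 2i, 3 in LIF+PD and 3 in CH+LIF, against 18.6%, 25.2% and 25.4% of all genes. More were called between the conditions that lack 1 factor. For LIF+PD against 2i the count was 8 of the 27 (25.1% of all genes). It was 6 for CH+LIF against 2i (23.9%) and 5 for CH+LIF against LIF+PD (30.4%). Against 2i+LIF, Srf, the serum response factor itself, named after its values were seen, rose in 2i (0.52, adjusted p = 0.015 by limma) and in LIF+PD (1.06, adjusted p = 0.000671). In CH+LIF, Elk3 (1.03, adjusted p = 0.0055), a ternary complex factor, and Nras (0.35, adjusted p = 0.0341) rose, and Elk1 (-0.49, adjusted p = 0.0113), another ternary complex factor, fell. Since handling of cells can induce immediate-early and heat-shock genes together, 9 heat-shock and stress genes were also read, of which 8 were tested. In CH+LIF Hsph1 rose (0.77, adjusted p = 0.0163) and Hspb1 fell (-0.61, adjusted p = 0.0111). In LIF+PD, Hspa5, named after its values were seen, rose (0.46, adjusted p = 0.0148), and in 2i Hspb1 fell (-0.45, adjusted p = 0.0386). Hspa1b, also named after its values were seen, was highest in LIF+PD (1.40 and 2.17 FPKM, against 0.446 and 0.772 FPKM in 2i+LIF). Its difference was 0.79 against 2i+LIF (adjusted p = 0.0728 by limma), not called, and 1.10 against 2i (adjusted p = 0.0243). Hspa1b passed the filter on low values only with the LIF+PD cultures included. A higher value in that condition was thus built into its entry, and its call is given as a description. Against 2i, 3 of the 8, Hspa1b among them, rose in LIF+PD and none fell, where 25.1% of all genes were called. The part of handling was not tested.

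The genes whose pattern was most like that of a member over the 8 cultures were found by Pearson's r of log2(FPKM + 1), as a description. The 8 points are 4 conditions with 2 cultures each and share their libraries. Junb was nearest to Cers4 (r = 0.996), B4galnt4 (0.990) and Tgm1 (0.985), among 9555 genes compared. Tgm1 was at 16.4 and 19.9 FPKM in 2i+LIF, 2.73 and 3.03 FPKM in 2i, 37.7 and 52.2 FPKM in CH+LIF and 32.5 and 49.4 FPKM in LIF+PD, so both genes were lowest in the 2 cultures of 2i, at a higher FPKM for Tgm1 than for Junb. Fos was nearest to Gpd1l (0.985), Rab4b (0.985) and Sh3bp4 (0.979), Jun to 2410089E03Rik (0.946), 1110034G24Rik (0.943) and Hyal1 (0.922), and Egr1 to Dnmt1 (0.995), Zmiz2 (0.984) and Vac14 (0.984), among 9556 genes. The neighbours of Egr1 varied little in level, with Dnmt1 between 82.2 and 108 FPKM.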

How the data were processed

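RNA sequencing values of 8 cultures were used, 2 for each of 4 conditions, grouped by the sample titles. The authors mapped single-end reads with TopHat2 to mm10 with an Ensembl annotation and deposited, for each culture, a table of gene FPKM that includes a lower and an upper bound, which per the labels' processing notes came from Cufflinks and Cuffdiff; the versions of these tools, and whether strand was used for FPKM, are not given in the sources used here. The methods' strand-specific gene counts were not used. The labels call the RNA polyA RNA, whereas the methods describe rRNA depletion. The 22 repeated gene identifiers were summed.

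Values were tested as log2(FPKM + 1) with limma 3.58.1 (R 4.3.3, mean-variance trend) in 1 fit of the 8 cultures with 4 residual degrees of freedom, over the 12927 genes of at least 1 FPKM in at least 2 cultures. P-values are two-sided, with Benjamini-Hochberg adjustment over all genes in each of 6 pairwise comparisons at 0.05, without adjustment across comparisons. Fold changes on this scale understate those of low genes. Relative depth was estimated from values below 0.5 FPKM, since 14.8% to 22.7% of their ratios to replicate 1 of 2i+LIF shared a most common value; whole reads were not recovered, so no counting error is given. The code was tested on simulated data.

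Genes named from each list were, in CH+LIF against 2i+LIF, up to 3 with the largest increase and up to 3 with the largest decrease among those called with a mean of at least 5 FPKM in a group, with all 10 members, Socs3, Axin2, Dusp6 and Pou5f1, and the 3 nearest genes by Pearson's r for Egr1, Fos, Jun and Junb. Any other gene was named after its values were seen. The members and lists were chosen with earlier results of these data known. Alternatives were the pseudocount, the filter, 3 scalings, the trend, the cultures fitted, a replicate block and leaving out each culture. Gene positions are those of the deposited files, and overlaps were read from GENCODE M21.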

Additional observations from a re-analysis of the deposited data

How the results depend on the processing

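Leaving aside Egr1, whose entry rested on CH+LIF, 13 of 20 called results of the members held under all alternatives, 7 were lost in at least 1 and none changed direction. All 3 Egr1 calls were lost in at least 1. Of 16 results of the other members that were not called, 1 was gained, Jund in CH+LIF against 2i+LIF without replicate 2 of CH+LIF. With 2 cultures in each condition, leaving out 1 leaves a lone culture that is assumed to vary like the others. All counts of members called from here on include Egr1 where it was called, and its calls in CH+LIF were built into its entry. The number of members called ranged, with 1 culture left out, from 1 to 4 in LIF+PD against 2i+LIF (4 with all cultures), from 0 to 2 in CH+LIF against 2i+LIF (3), and from 3 to 5 in CH+LIF against LIF+PD (5). Over the same fits the share of all genes called ranged from 13.05% to 25.85%, from 11.76% to 25.76% and from 17.88% to 30.87%. In LIF+PD against 2i+LIF, 2 were called with no filter (14.56% of all genes). In CH+LIF against 2i+LIF, 0 were called with a pseudocount of 0.1 (25.26% of all genes), 1 with no filter (12.89%) and 1 with only the 4 cultures compared (20.86%). In CH+LIF against LIF+PD, 3 were called with a filter at 5 FPKM (34.06% of all genes), which Egr1, Fos and Jun did not pass. The causes were not tested.

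Directions turned only for differences that were not called. They were Egr1 in LIF+PD against 2i+LIF (-0.11 by quantile normalization), Ier2 in the same comparison (0.0047 rescaled to TPM) and Jund in CH+LIF against 2i (0.0717 by TPM, 0.00802 by quantile normalization). With 1 culture left out, the differences ranged from -0.0117 to 0.144 for the first, from -0.27 to 0.16 for the last, from -0.0324 to 0.146 for Ier3 in CH+LIF against 2i+LIF, and in CH+LIF against LIF+PD from -0.0745 to 0.295 for Jun and from -0.41 to 0.15 for Junb.

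The replicate block gave 2, 3 and 2 members called in 2i, LIF+PD and CH+LIF against 2i+LIF (19.7%, 26.84% and 27.22% of all genes). It gave 4, 4 and 4 in CH+LIF against 2i, CH+LIF against LIF+PD and LIF+PD against 2i (25.82%, 31.76% and 26.82% of all genes). It lost Ier2 in 2i and in CH+LIF, Jund in LIF+PD, and Egr1 in CH+LIF against LIF+PD. Deviations of same-numbered cultures correlated at -0.03 to 0.09 across genes. The titles give only a replicate number, and whether same-numbered cultures shared a batch was not tested.

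Rescaling to TPM moved the median of all genes by 0.117 in LIF+PD and by 0.172 in CH+LIF against 2i+LIF, and by 0.118 in CH+LIF against 2i. The share of called genes that were higher went from 58.6% to 74.8%, from 47.9% to 74.0% and from 44.5% to 64.0%. In CH+LIF against 2i+LIF, TPM gave 9 upstream genes called in place of 3 (30.29% of all genes in place of 25.42%). Quantile normalization gave 5 upstream genes, and 4 heat-shock genes in place of 2 (25.54% of all genes). The replicate block gave 5 upstream genes (27.22% of all genes). The 1 EGR and NAB gene called with a pseudocount of 5, a filter at 5 FPKM or the replicate block was not called in the main analysis.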
